A study of Homo sapiens with 16 samples.

Results

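The comparison set cisplatin-resistant lung adenocarcinoma cells that had been transfected with a control gapmer against the same cells that had not been transfected, both in cisplatin. Its members are 4 of the 16 RNA-seq libraries of the series, chosen by their labels: control gapmer in cisplatin, replicates 1 and 2, and no transfection in cisplatin, replicates 1 and 2. The cells are A549/cDDP, a resistant derivative of the established human lung line A549, described by the submitters as an unsynchronised mixed population and kept in medium that itself held cisplatin at a labelled 15 mM. A gapmer is an antisense oligonucleotide whose central DNA stretch recruits RNase H to a matching RNA, and whose ends are locked nucleic acid. A control gapmer is meant to have no such target, and its sequence was not used here.

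For the control gapmer libraries, 35000 cells were seeded, transfected with 12 pmol of gapmer in a lipid reagent, and collected 48 h after transfection, the last 24 h of it in cisplatin at a labelled 15 mM. For the untransfected libraries, 35000 cells were seeded overnight and then held in the same labelled concentration for 24 h, so they were in culture for less time. That millimolar unit is the submitters' own wording. The oligonucleotide, the transfection reagent and the time in culture differ together between the groups and cannot be told apart. The same contrast exists in drug solvent, in 4 other A549/cDDP libraries, and another gapmer, aimed at the noncoding RNA SCAT7, was transfected in cisplatin too, in 2 libraries. The labels do not say whether replicates came from separate cultures, and the spread behind each p-value is that between libraries, which may be technical.

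Values are FPKM, fragments counted in a gene scaled for its length and for library depth, and changes are differences of log2(FPKM + 0.5) between the control gapmer and no transfection. A gene is said to rise or fall where limma's adjusted p, two-sided and adjusted over 17198 tested genes, was under 0.05. The depth recovered from the files was 42490000 and 42300000 reads in the control gapmer libraries and 39240000 and 36080000 in the untransfected libraries. Replicates correlated across genes at 0.996 with the control gapmer and 0.994 without transfection, and libraries of different groups at 0.977 to 0.979. The epithelial keratin KRT7 lay between 2916 and 3322 FPKM in all 4 libraries. Of 18 lung epithelium markers, 9 passed the filter on low values, and the surfactant genes SFTPA1, SFTPA2, SFTPB, SFTPC and SFTPD lay at or under 0.171 FPKM in every library. Of 19 markers of other lineages, 2 passed that filter, and the T cell marker CD3E was listed at 0 in all 4 libraries. The neurofilament gene NEFL made up most of that list's summed level, which was 20.5 and 21.8 FPKM with the control gapmer, against 44.1 and 45.5 FPKM without transfection.

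The change was broad in number and concentrated in size. In all, 3956 genes rose (23.0% of the genes tested) and 3333 fell (19.4%), 42.4% together. Most of these changes were small: 481 of the genes that rose did so by at least 1 on the log2 scale and 112 fell by as much. At 4 or more on the log2 scale, 16 genes rose and 1 fell. The median change over all tested genes was 0.02. The split between directions depended on the scaling, with 3248 genes higher and 4158 lower after quantile normalization, and 3498 higher and 3726 lower with median ratio size factors. Libraries of both groups did not overlap for 38.1% of genes in the higher direction and 33.9% in the lower direction.

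The largest changes were in the interferon response. Type I interferons (the alpha, beta and related ligands) and type III interferons (the lambda ligands) signal through paired receptor chains to the kinases JAK1 and TYK2, which phosphorylate STAT proteins. These join IRF9, and the complex binds the interferon-stimulated response element in the promoters of many antiviral genes. Cells make the ligands when sensors such as RIG-I, MDA5, TLR3 or cGAS meet foreign or misplaced nucleic acid, and lung epithelium is a known source of the lambda ligands.

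All 25 interferon response genes on the list rose, against 23.0% of all tested genes in that direction, with a median change of 4.39 (range 1.38 to 6.61) beside a median of 0.02 over all genes. Their summed level was 5086 and 5125 FPKM with the control gapmer and 333 and 336 FPKM without transfection. For all 25, both control gapmer libraries lay above both untransfected libraries, as they did for 38.1% of all tested genes. The gene with the largest change was IFI27, an interferon-induced protein of the mitochondrial membrane. IFIT1, which binds viral RNA that lacks the cellular cap methylation, and IFI6, an endoplasmic reticulum protein that limits flavivirus replication, came next. Their promoters and that of ISG15, a ubiquitin-like modifier, are shown because they hold letters of the core of that response element. The windows run from 250 bases before to 50 bases after the RefSeq start (GRCh38.p14), 5′ to 3′ on the gene's own strand, at chr14:94110486-94110785 for IFI27, chr10:89392373-89392672 for IFIT1, chr1:27672143-27672442 for IFI6 (minus strand) and chr1:1013247-1013546 for ISG15. Capitals mark matches to the core GAAANNGAAA on either strand, those on the opposite strand as the reverse complement.
IFI27: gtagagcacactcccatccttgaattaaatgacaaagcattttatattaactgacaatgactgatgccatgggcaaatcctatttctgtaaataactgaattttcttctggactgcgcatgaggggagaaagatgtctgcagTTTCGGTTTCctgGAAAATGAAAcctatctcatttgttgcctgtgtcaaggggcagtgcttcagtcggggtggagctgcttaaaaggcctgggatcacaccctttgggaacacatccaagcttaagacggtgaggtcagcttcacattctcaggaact
IFIT1: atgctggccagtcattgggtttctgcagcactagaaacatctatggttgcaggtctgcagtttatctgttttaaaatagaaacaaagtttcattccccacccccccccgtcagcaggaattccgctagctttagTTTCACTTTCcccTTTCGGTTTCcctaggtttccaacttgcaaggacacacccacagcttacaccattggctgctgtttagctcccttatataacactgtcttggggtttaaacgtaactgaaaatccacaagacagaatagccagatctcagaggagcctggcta
IFI6: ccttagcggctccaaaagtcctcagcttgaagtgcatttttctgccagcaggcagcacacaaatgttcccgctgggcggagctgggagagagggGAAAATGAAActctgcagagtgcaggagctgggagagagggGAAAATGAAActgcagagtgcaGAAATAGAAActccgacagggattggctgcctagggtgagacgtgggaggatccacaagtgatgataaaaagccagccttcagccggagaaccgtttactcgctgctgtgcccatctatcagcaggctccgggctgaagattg
ISG15: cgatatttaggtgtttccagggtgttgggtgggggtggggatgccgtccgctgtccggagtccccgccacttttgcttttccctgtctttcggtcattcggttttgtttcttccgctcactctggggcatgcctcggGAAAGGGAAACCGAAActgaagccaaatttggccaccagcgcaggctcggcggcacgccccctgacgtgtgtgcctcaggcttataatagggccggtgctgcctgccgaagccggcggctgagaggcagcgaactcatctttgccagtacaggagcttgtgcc

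In IFI27 the matches began 108 and 95 bases before the start, the farther one on the opposite strand. In IFIT1 both matches, at 116 and 103 bases, were on the opposite strand. IFI6 held 3 matches, at 156, 115 and 93 bases, and ISG15 held 2 that overlap, at 113 and 107 bases. A window was at hand for 19 of the 25 genes, and 12 of these (63.2%) held the core, counting both strands. The core was in 3.65% of all 27305 RefSeq windows of this length and in 2.97% of the 11431 windows of tested genes. A match is a stretch of letters and does not show that a factor binds there.

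**Figure D1:**
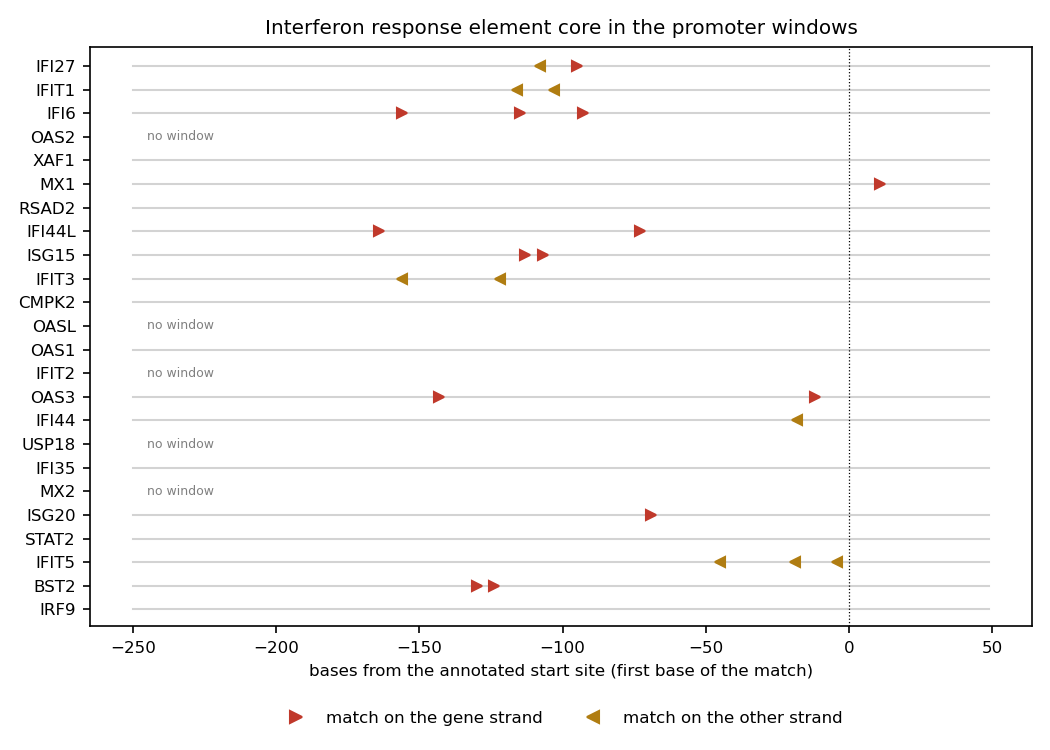
Position of each match to GAAANNGAAA in the promoter windows of 24 of the 25 interferon response genes, in bases from the RefSeq start site, ordered by the size of the change, with red triangles for the gene strand and brown triangles for the opposite strand. Of the 19 genes with a window, 12 hold a match, and those of IFI27, IFIT1, IFI6 and ISG15 lie between 156 and 93 bases before it.

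IFI27 (ENSG00000165949, chromosome 14, 94104836 to 94116698 on hg38) stood at 182 and 201 FPKM with the control gapmer, against 1.06 and 1.95 FPKM without transfection, a log2 change of 6.61 ± 0.29 (SE, limma adjusted p = 9.49e-09). IFIT1 (ENSG00000185745) stood at 141 and 142 FPKM, against 0.91 and 1.09 FPKM without transfection, a change of 6.57 ± 0.16 (limma adjusted p = 2.45e-10). IFI6 (ENSG00000126709) had the highest level of the list, 1398 and 1420 FPKM with the control gapmer, against 14.1 and 16.8 FPKM without transfection. Without transfection IFI27 and IFIT1 were thus below 2 FPKM in both libraries, while IFI6 already had a moderate level.

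The antiviral enzymes moved in the same direction. OAS2, a synthetase of the RNase L activator oligoadenylate, had 50.1 and 50.6 FPKM with the control gapmer, against 0.184 and 0.288 FPKM without transfection (log2 change 6.11). OAS1 had 255 and 257 FPKM against 11.0 and 12.4 FPKM without transfection (4.39). MX1, a dynamin-like GTPase that blocks influenza viruses, had 276 and 273 FPKM, against 3.55 and 4.82 FPKM without transfection (5.89). RSAD2, which makes a chain-terminating nucleotide, and CMPK2, which lies beside it, rose by 5.77 and 4.70. XAF1, an interferon-induced promoter of apoptosis, rose by 5.92, IFI44L by 5.42, ISG15 by 5.11, IFIT3 by 4.80, OASL by 4.48, OAS3 by 3.74 and IFI44 by 3.54. The smallest changes were in the signalling genes STAT2 and IRF9, in IFIT5, and in the virion tether BST2, which rose by 1.40.

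**Figure D2:**
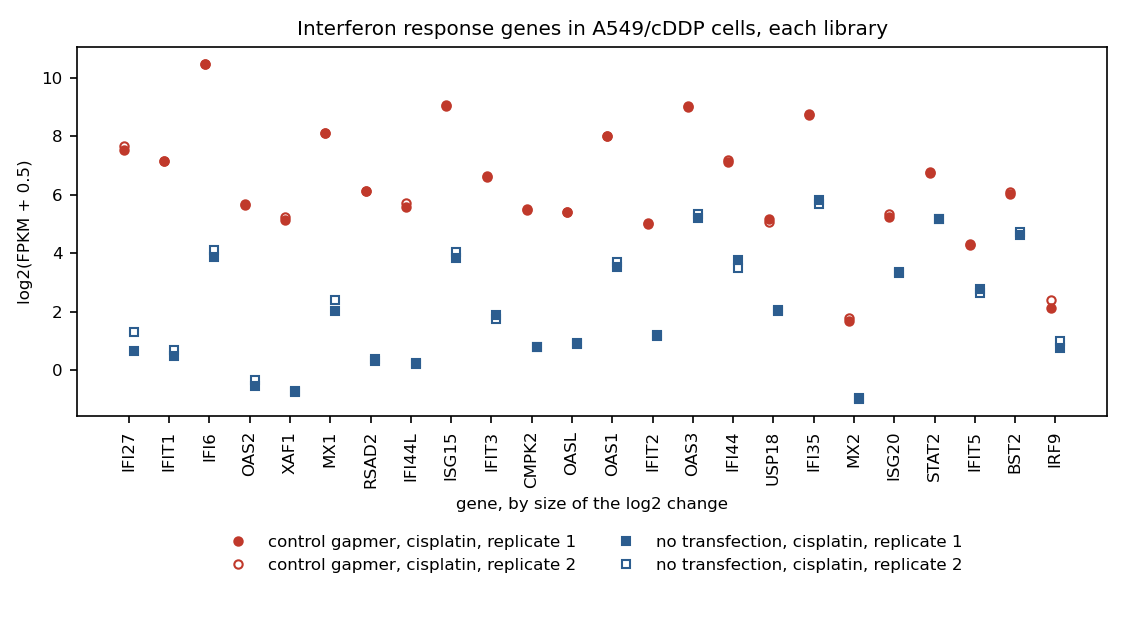
Level of 24 of the 25 interferon response genes in each of the 4 libraries, as log2(FPKM + 0.5), with control gapmer libraries in red and untransfected libraries in blue and genes ordered by the size of the change. For every gene shown both control gapmer libraries lie above both untransfected libraries, from IFI27 (change 6.61) to IRF9 (change 1.38). The same holds for 38.1% of all tested genes.

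Some of these genes overlap others, and no source used here gives the strand option used in counting, so reads in the shared stretches cannot be told apart. RSAD2 and CMPK2 share 830 bp on opposite strands. IFIT1 and IFIT3 lie inside the span of LIPA on the opposite strand, which averaged 82.2 FPKM with the control gapmer and 62.4 FPKM without transfection. OAS2 lies inside the span of the antisense gene AC004551.1, which averaged 5.99 FPKM with the control gapmer and 0.278 FPKM without transfection.

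The ligands themselves were low but detectable after transfection. IFNL1, a lambda interferon, had 1.15 and 1.35 FPKM with the control gapmer, against 0.0297 and 0.0323 FPKM without transfection (log2 change 1.72 ± 0.36, limma adjusted p = 0.00223). IFNB1, interferon beta, had 0.575 and 0.798 FPKM, against 0.0297 and 0 FPKM without transfection (1.20 ± 0.26, limma adjusted p = 0.00243). For both, the control gapmer libraries lay above the untransfected ones, and the pseudocount understates the change at such levels. IFNL1, IFNL2, IFNL3 and IFNB1 lay at or under 0.1503 FPKM in all untransfected A549/cDDP libraries. They met the filter on low values through libraries where they were higher, those with a gapmer included. Their p-values are therefore not support apart from that choice. IFNL2 rose by 1.70, and IFNL3, listed at 0 in both untransfected libraries, had 0.813 and 1.43 FPKM with the control gapmer, at least 21.7-fold higher than 3 reads over the untransfected group would give, a floor for counting error only. IFNL2 and IFNL3 are near-identical copies, so their reads may be split between them, and the IFNL3 call was lost without control gapmer replicate 2 (limma adjusted p = 0.0704). Of the 17 type I ligand genes, 13 were listed at 0 in all 4 libraries, and the type II ligand IFNG was also listed at 0. IFNE, a type I interferon known from the reproductive tract, fell by 0.78, with 1.85 and 2.18 FPKM with the control gapmer and 3.58 and 4.04 FPKM without transfection.

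The receptors and kinases changed little beside the genes they act on. Of 6 receptor chains, 1 rose and 2 fell, beside 23.0% and 19.4% of all tested genes, so the count is near those shares. IFNAR1, a chain of the type I receptor, had 29.2 and 29.7 FPKM with the control gapmer, against 37.3 and 38.0 FPKM without transfection (log2 change -0.35, limma adjusted p = 4.29e-05). IFNGR1, a chain of the type II receptor, rose by 0.51. Its partner IFNGR2 (-0.00), the type I chain IFNAR2 (-0.01) and the lambda chain IFNLR1 (0.07) did not pass. The chain IL10RB fell by 0.16. JAK1 had 299 and 293 FPKM with the control gapmer and 301 and 294 FPKM without transfection, with the groups overlapping. Neither JAK1 (-0.01, limma adjusted p = 0.915) nor TYK2 (0.06, limma adjusted p = 0.248) passed. Of the other Janus kinases, JAK2 did not pass (0.10), and JAK3 fell by 0.42 (limma adjusted p = 0.0302).

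RNA of several transcription factors of the pathway rose, STAT2 and IRF9 of the interferon response list among them. STAT2 had 107 and 110 FPKM with the control gapmer, against 35.8 and 35.4 FPKM without transfection (1.59). IRF9 had 3.83 and 4.76 FPKM against 1.18 and 1.51 FPKM without transfection (1.38). IRF7, the factor that amplifies ligand transcription, rose by 3.34, and IRF1 rose by 1.14, with 50.3 and 52.1 FPKM with the control gapmer and 23.2 and 22.7 FPKM without transfection. IRF3, which sensors activate by phosphorylation, did not pass (-0.01, limma adjusted p = 0.885), with 75.6 and 78.2 FPKM with the control gapmer and 75.1 and 80.0 FPKM without transfection. Among 12 tested brakes on the pathway, 3 rose and 3 fell, beside 23.0% and 19.4% of all tested genes. USP18, which strips ISG15 and dampens the type I receptor, rose by 3.08, with 35.6 and 32.7 FPKM with the control gapmer and 3.58 and 3.63 FPKM without transfection. The other 2 that rose, SOCS2 (0.31) and SOCS3 (0.30), lost their calls in each fit without 1 of the 4 libraries, and with a replicate block SOCS3 had a limma adjusted p = 0.0555.

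**Figure D3:**
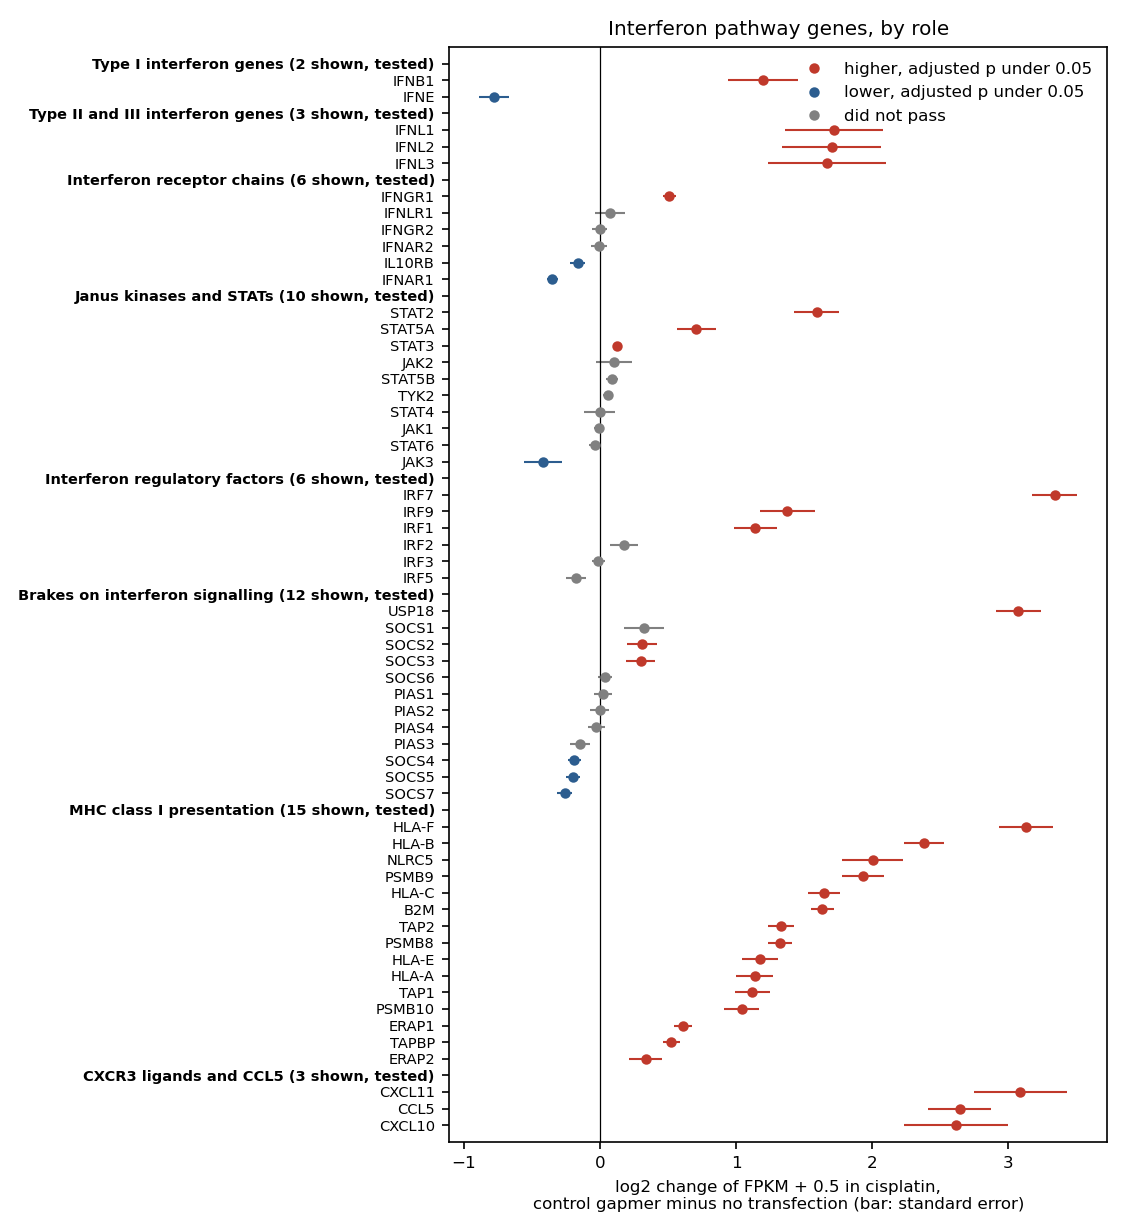
Log2 change, control gapmer minus no transfection in cisplatin, for tested interferon pathway genes grouped by role, with bars for the standard error, red for genes that rose, blue for genes that fell and grey for those that did not pass. MHC class I genes lie between 0.34 and 3.13, whereas most receptor chains and kinases lie near 0.

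MHC class I presentation shows peptides from inside the cell to T cells and is a classical target of interferon. Its genes were grouped after values had been seen, so the count describes that choice too. Of the 15 tested members 15 rose, against 23.0% of all tested genes, with a median change of 1.33. Their summed level was 2255 and 2349 FPKM with the control gapmer and 827 and 806 FPKM without transfection. HLA-F had 56.3 and 56.2 FPKM against 6.02 and 5.92 FPKM without transfection (3.13), and HLA-B had 267 and 290 FPKM against 55.2 and 51.0 FPKM without transfection (2.38). B2M, the light chain, had 977 and 1041 FPKM, against 336 and 314 FPKM without transfection (1.63). NLRC5, the transactivator of the class, rose by 2.004, the immunoproteasome subunit PSMB9 by 1.94, and the peptide transporters TAP1 and TAP2 by 1.12 and 1.33. The peptidase ERAP2 rose by 0.34, a call that ended with a replicate block (limma adjusted p = 0.0545) and in limma fits without either untransfected library or control gapmer replicate 2 (0.0530 to 0.242). HLA-G was listed at 0 throughout. Some members overlap, so their values are not fully separate. TAP1 lies inside the span of PSMB9 on the opposite strand, and PSMB8 overlaps PSMB9 too. HLA-B and HLA-C overlap on the same strand, and reads in such shared stretches cannot be told apart. The GAAANNGAAA core was in 7 of 13 windows of these genes (53.8%).

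The chemokines that draw T cells rose too. CXCL11 had 5.99 and 6.89 FPKM with the control gapmer, against 0.322 and 0.304 FPKM without transfection (3.09), CXCL10 had 3.22 and 4.46 FPKM against 0.108 and 0.306 FPKM without transfection (2.62), and CCL5 had 53.7 and 58.7 FPKM against 7.97 and 9.17 FPKM without transfection (2.65). CXCL9 did not pass the filter on low values.

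Of 16 tested sensors of nucleic acid, their adaptors and their factors IRF3 and IRF7, 9 rose and 1 fell. The median change of the list was 0.83, and of all tested genes 23.0% rose and 19.4% fell. The double-stranded RNA sensor IFIH1 (MDA5) had 75.8 and 74.0 FPKM with the control gapmer, against 9.51 and 9.20 FPKM without transfection (2.94), and RIGI had 63.6 and 66.0 FPKM against 11.5 and 12.1 FPKM without transfection (2.41). DHX58, their regulatory relative, rose by 2.44, the DNA-binding protein IFI16 by 1.56, the kinase EIF2AK2 (PKR) by 1.36, the Toll adaptor MYD88 by 1.23 and the endosomal sensor TLR3 by 1.06. The DNA sensor CGAS rose by 0.35. MAVS, the adaptor of RIGI and IFIH1, fell by 0.46, with 15.9 and 15.96 FPKM with the control gapmer and 21.7 and 22.5 FPKM without transfection. STING1 (0.61, limma adjusted p = 0.0517) and the kinase TBK1 (-0.01, limma adjusted p = 0.935) did not pass. TLR7 and TLR8, the endosomal sensors of single-stranded RNA, were listed at 0 in all 4 libraries.

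Targets of NF-kB, the other arm of innate signalling, rose by less. Of 21 tested, 16 rose and 0 fell (23.0% of all genes rose and 19.4% fell), with a median change of 0.64. CCL20, a chemokine of mucosal surfaces, had 4.85 and 6.10 FPKM with the control gapmer and 1.02 and 0.704 FPKM without transfection (2.13). CCL2, which draws monocytes, had 241 and 249 FPKM against 88.6 and 79.4 FPKM without transfection (1.54). The adhesion molecule ICAM1 rose by 1.62, CXCL3 by 1.29, CXCL8 by 1.003 and IL6 by 0.72. The NF-kB subunits NFKB1 (0.07, limma adjusted p = 0.314) and NFKB2 (0.02, limma adjusted p = 0.811) did not pass.

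Cell cycle genes formed the next group. All 25 mitosis genes rose, with a median change of 1.18, as did all 25 S phase genes, with a median of 1.32. All 26 genes of the Fanconi anaemia and homologous recombination pathways rose too, with a median of 1.13. Of all tested genes 23.0% rose, and these lists were chosen with earlier results of these data known. The libraries are bulk RNA, in which more cells of a cycling state and more RNA per cell cannot be told apart. The summed level of the mitosis list was 1822 FPKM in both control gapmer libraries, against 828 and 762 FPKM without transfection.

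AURKB (ENSG00000178999, chromosome 17, 8204733 to 8210600), the kinase that corrects chromosome attachment, had 63.9 and 68.2 FPKM with the control gapmer and 20.7 and 18.5 FPKM without transfection, the largest change of the mitosis list (1.73 ± 0.08, limma adjusted p = 1.10e-08). PRC1, which bundles the microtubules of the central spindle, had 150.3 and 149 FPKM against 60.8 and 59.3 FPKM without transfection (1.31). BIRC5 (survivin) and the spindle protein NUSAP1 rose by 1.35 each, PLK1 by 1.23 and CDK1 by 1.20. The smallest change of the list was 0.74, in the kinesin gene CENPE.

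Among replication genes, the origin licensing factor CDC6 had 97.9 and 95.8 FPKM with the control gapmer and 33.4 and 32.4 FPKM without transfection (1.54). GINS2, a subunit of the replicative helicase, rose by 1.62, MCM10 by 1.58, the cell cycle transcription factor E2F1 by 1.47 and the ribonucleotide reductase subunit RRM2 by 1.47. Cyclin E1 (CCNE1) rose least, by 0.43. Of the repair genes, the helicase BRIP1 (FANCJ) had 27.7 and 29.02 FPKM with the control gapmer and 8.61 and 8.12 FPKM without transfection (1.70). The helicase BLM rose by 1.40, FANCD2 by 1.36 and BRCA1 by 1.07.

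Promoters of mitosis genes are known for a CHR element (TTTGAA) near the start site and for CCAAT boxes, through which the DREAM and NF-Y complexes act. The window of PRC1 is shown as the example from this group (RefSeq, GRCh38.p14, chr15:90994486-90994785, minus strand), with the CHR letters in capitals, beginning 20 bases before the start.
PRC1: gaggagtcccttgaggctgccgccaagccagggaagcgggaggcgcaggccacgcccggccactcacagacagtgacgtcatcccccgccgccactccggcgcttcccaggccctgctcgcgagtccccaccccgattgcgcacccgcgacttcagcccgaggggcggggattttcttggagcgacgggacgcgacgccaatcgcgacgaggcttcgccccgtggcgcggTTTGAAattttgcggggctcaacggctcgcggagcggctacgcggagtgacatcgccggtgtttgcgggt

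TTTGAA, on either strand, was in 14 of 20 mitosis windows (70%), in 1 of 21 S phase windows (4.76%) and in 9.61% of the windows of tested genes. CCAAT was in 16 of 20 mitosis windows (80%) and 15 of 21 S phase windows (71.4%), against 36.2% of windows of tested genes. The GAAANNGAAA core was in 0 of the 20 mitosis, 0 of the 21 S phase and 0 of the 23 Fanconi anaemia and homologous recombination windows.

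**Figure D4:**
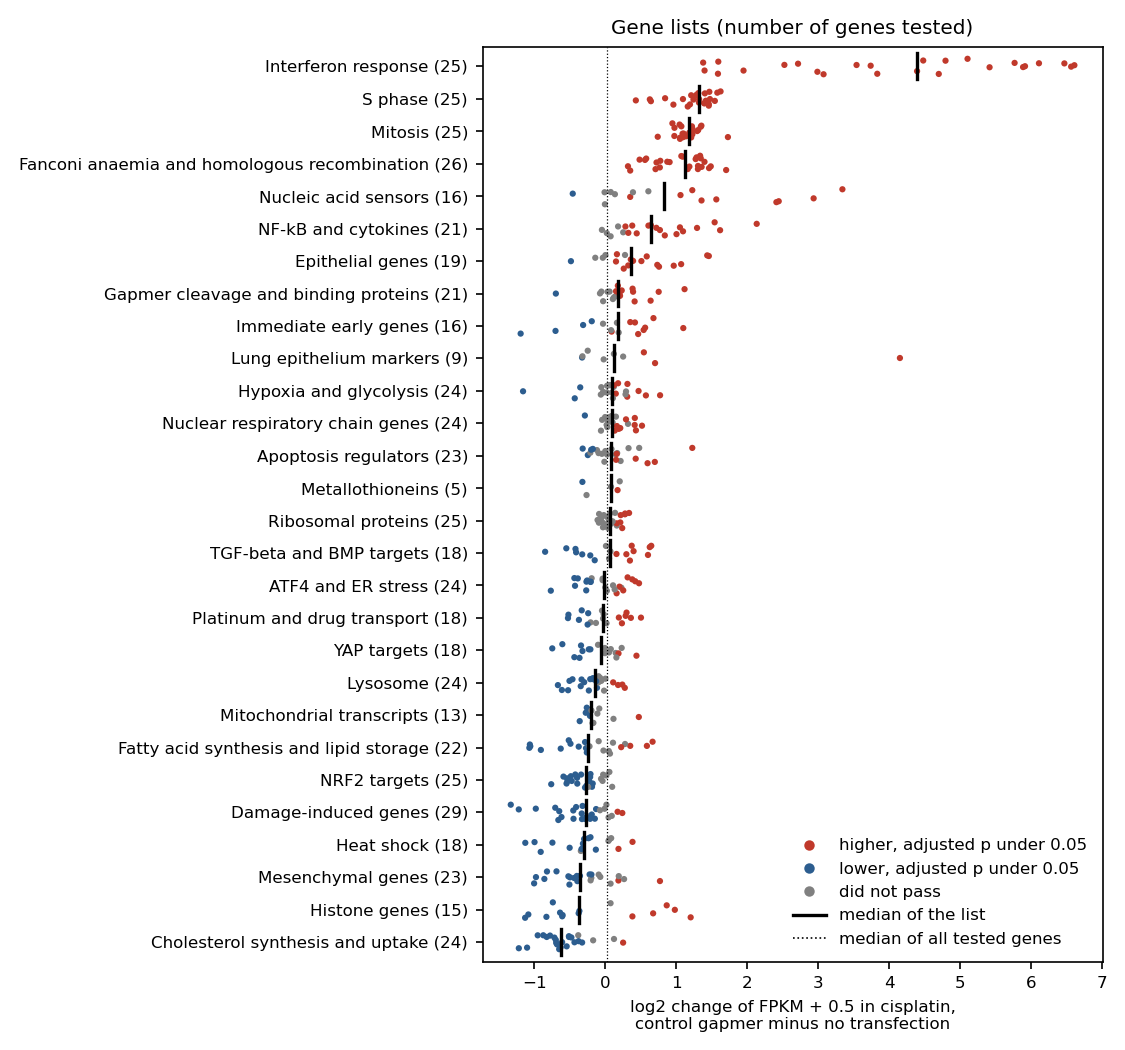
Log2 change of every tested gene of 28 gene lists, control gapmer minus no transfection in cisplatin, with red points for genes that rose, blue for genes that fell, grey for those that did not pass, a bar at each list's median and a dotted line at the median of all tested genes. The interferon response has a median of 4.39, the cell cycle and repair lists lie between 1.13 and 1.32, and cholesterol synthesis is lowest at -0.62.

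Genes that cells raise after DNA damage went mostly the other way. Of 29, 21 fell (19.4% of all genes did) and 2 rose, with a median change of -0.27. CDKN1A (ENSG00000124762, chromosome 6, 36676460 to 36687339), which encodes the cyclin-dependent kinase inhibitor p21, had 447 and 449 FPKM with the control gapmer, against 708 and 711 FPKM without transfection (-0.66 ± 0.03, limma adjusted p = 5.50e-09). TP53INP1, a stress-induced regulator of autophagy and apoptosis, had 9.01 and 9.72 FPKM against 24.0 and 24.7 FPKM without transfection (-1.33), and the RNA-binding protein gene ZMAT3 had 11.8 and 12.3 FPKM against 28.5 and 28.9 FPKM without transfection (-1.22). Both groups were well apart for these genes. TP53I3 fell by 0.98, the mitophagy gene SPATA18 by 0.71 and the ribonucleotide reductase subunit RRM2B by 0.65. MDM2, the ubiquitin ligase of p53, had 248 and 273 FPKM with the control gapmer and 299 and 313 FPKM without transfection (-0.23, limma adjusted p = 0.0131). That call ended without untransfected replicate 2 (limma adjusted p = 0.0874) or control gapmer replicate 1 (limma adjusted p = 0.132). The repair factor DDB2 (0.17) and the nuclease AEN (0.24) rose, and GDF15 (0.01) and GADD45A (0.05) did not pass.

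Most genes of sterol synthesis fell, as did 11 of 22 genes of fatty acid synthesis and storage. Beside them, 19.4% of all tested genes fell and 23.0% rose. Of 24 genes of cholesterol synthesis and uptake, 20 fell and 1 rose, with a median of -0.62. INSIG1, which holds the sterol sensor in the endoplasmic reticulum and is itself a target of SREBP2, had 10.1 and 9.99 FPKM with the control gapmer and 24.1 FPKM in both untransfected libraries (-1.22). MSMO1, a demethylation enzyme of the pathway, fell by 1.10, the cyclase LSS by 0.95 and the epoxidase SQLE by 0.88. EBP, the single gene that rose (0.25), lost its call with either other scaling, in a fit of the 4 libraries alone, without untransfected replicate 2 and without control gapmer replicate 1. Among the 22 genes of fatty acid synthesis and storage the median was -0.24, and 4 rose (2 without untransfected replicate 2 or control gapmer replicate 1) and 7 did not pass. The desaturases SCD, FADS1 and FADS2 each fell by 1.06 to 1.07, and FADS1 and FADS2 overlap each other. SREBF1, the gene of their regulator, rose by 0.35.

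Several stress lists also leaned down, beside 19.4% of all tested genes that fell and 23.0% that rose. Of 25 NRF2 targets, 18 fell and 0 rose, with a median of -0.27. The cystine transporter SLC7A11 had 131 and 128 FPKM with the control gapmer and 219 and 221 FPKM without transfection (-0.76), and the ferritin chains FTH1 and FTL fell by 0.59 and 0.54. Of 18 heat shock genes, 12 fell and 2 rose (1 or 0 rose in fits of the 4 libraries alone, without untransfected replicate 2 or without control gapmer replicate 1), and those that fell include the chaperones HSPB8 (-0.998) and HSPA1A (-0.91). The autophagy receptor SQSTM1 had 1656 and 1572 FPKM with the control gapmer and 2438 and 2499 FPKM without transfection (-0.61). Of 24 lysosome genes 14 fell, or 9 without control gapmer replicate 2.

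Epithelial genes rose and mesenchymal genes fell in most cases, beside 23.0% of all tested genes that rose and 19.4% that fell. Of 19 tested epithelial genes, 14 rose and 1 fell, with a median of 0.36, but 9 rose without untransfected replicate 1 or without control gapmer replicate 2. E-cadherin (CDH1), the adherens junction protein, had 5.31 and 5.43 FPKM with the control gapmer and 2.61 and 2.02 FPKM without transfection (1.07). CEACAM6, a surface glycoprotein, rose by 1.46, the tight junction scaffold TJP3 by 1.44 and keratin 18 (KRT18) by 0.58, and the claudin CLDN1 fell by 0.49. Of 23 mesenchymal genes, 14 fell and 2 rose, with a median of -0.36. The gelatinase MMP2 had 39.3 and 36.8 FPKM with the control gapmer and 76.6 and 76.9 FPKM without transfection (-1.004). The repressor SNAI2 fell by 0.98, COL6A1 by 0.86, the gelatinase MMP9 by 0.82 and N-cadherin (CDH2) by 0.44. The collagen crosslinker LOXL2 rose by 0.77.

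Among the lung markers, the type 2 cell and dendritic cell gene LAMP3, which interferon is known to induce, had 27.4 and 28.2 FPKM with the control gapmer and 1.17 and 1.02 FPKM without transfection (4.15). The other lung markers that passed moved by less than 1: the transcription factors TP63 and FOXA1 rose by 0.70 and 0.54, and the lipid transporter ABCA3 fell by 0.33. NEFL fell by 1.11, with 19.3 and 20.8 FPKM with the control gapmer and 43.3 and 44.4 FPKM without transfection.

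In most of the remaining lists members moved both ways, beside 23.0% of all tested genes that rose and 19.4% that fell. Of 18 TGF-beta and BMP targets 8 rose and 7 fell, or 4 fell without untransfected replicate 2 or without control gapmer replicate 2. Of 15 tested histone genes 5 rose and 9 fell. H1-2, a replication-type linker histone, fell by 1.13, with 48.2 and 50.5 FPKM with the control gapmer and 112 and 105 FPKM without transfection. Replication-type histone mRNAs mostly lack a poly(A) tail, and these libraries were enriched for poly(A) RNA. Of 24 ATF4 and endoplasmic reticulum stress genes 7 rose and 9 fell, of 24 hypoxia and glycolysis genes 8 rose and 3 fell (4 rose without control gapmer replicate 1), and of 18 YAP targets 2 rose and 8 fell (1 rose without untransfected replicate 1 or control gapmer replicate 2). Of 23 apoptosis regulators 6 rose and 4 fell, shares near those of all genes. The largest change among them was a rise of 1.23 in BCL2A1, an NF-kB-induced survival gene. Of 18 platinum and drug transport genes 6 rose and 6 fell, or 3 and 3 without untransfected replicate 2 and 1 and 3 without control gapmer replicate 1. Of 25 ribosomal protein genes 7 rose, a share near that of all genes, and 0 fell (2 fell after quantile normalization). Of 24 nuclear respiratory chain genes 9 rose and 1 fell. Of 13 mitochondrial transcripts 1 rose and 6 fell, but 1 fell without untransfected replicate 2 or control gapmer replicate 1 and 2 fell without control gapmer replicate 2. Of 5 tested metallothioneins 1 rose and 1 fell, and 0 rose in 3 of the fits that leave out a library. All 3 genes of a chromosome 9 segment known to be lost in A549 were left out by the filter on low values.

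Across all tested genes, those with the largest falls at a level of at least 5 FPKM were led by the identifier ENSG00000275530, which was listed at 0 in both control gapmer libraries, against 477 and 204 FPKM without transfection. It has no gene model at hand, its call ended without untransfected replicate 1 or either control gapmer library (limma adjusted p = 0.0582 to 0.0705), and no fold is given. Next came the noncoding genes AC007686.1 (-1.85), AC145098.2 (-1.76) and LINC01629 (-1.75). Insulin-like growth factor 2 (IGF2) had 1.67 and 1.73 FPKM with the control gapmer and 5.09 and 6.59 FPKM without transfection (-1.52). ACO1, the cytosolic aconitase that doubles as an iron sensor, had 6.68 and 6.48 FPKM against 18.7 and 19.3 FPKM without transfection (-1.46), and the protease inhibitor gene SERPINE2 had 323 and 317 FPKM against 798 and 834 FPKM without transfection (-1.35). PIK3IP1, an inhibitor of PI3 kinase, fell by 1.41. The naming rule took only genes whose groups did not overlap, so both control gapmer libraries lay below both untransfected libraries by that choice.

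A control gapmer is not directed at SCAT7, taken here as ELF3-AS1, an antisense gene that overlaps ELF3. ELF3-AS1 had 3.73 and 3.23 FPKM with the control gapmer and 2.41 FPKM in both untransfected libraries (0.45 ± 0.17, limma adjusted p = 0.0472). The call was lost in each fit without 1 of the 4 libraries (limma adjusted p = 0.0704 to 0.226). ELF3, an epithelial transcription factor, averaged 45.2 ± 1.69 FPKM with the control gapmer and 26.6 ± 2.03 FPKM without transfection (SD, n = 2 each), with the groups apart (log2 change 0.76 ± 0.06, limma adjusted p = 8.10e-07). The genes share 2519 bp on opposite strands, so their reads cannot be told apart there. ELF3-AS1 also shares 10452 bp with RNPEP on the opposite strand, which averaged 65.5 FPKM with the control gapmer and 64.0 FPKM without transfection. RNASEH1, the nuclease that gapmers recruit, had 29.6 and 29.2 FPKM with the control gapmer and 28.04 and 29.5 FPKM without transfection, with the groups overlapping (0.03 ± 0.06, limma adjusted p = 0.715; -0.03 after quantile normalization). Of 21 genes of gapmer cleavage, binding and uptake, 12 rose and 1 fell, or 2 fell with either other scaling. Of all tested genes 23.0% rose and 19.4% fell. RNASEH2A rose by 1.12, the paraspeckle protein gene PSPC1 by 0.75, and the endosome tether EEA1 fell by 0.70.

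The same contrast in drug solvent uses none of these 4 libraries. There 3562 genes rose (20.7%) and 3266 fell (19.0%), 39.7% together. Of the genes that rose in cisplatin, 2843 also rose in solvent (71.9% of 3956, and 79.8% of 3562), and 2326 fell in both (69.8% of 3333, and 71.2% of 3266). Another 14 that rose in cisplatin fell in solvent, and 20 that fell in cisplatin rose in solvent. Across genes, which are not independent replicates, the changes correlated at 0.80. All 25 interferon response genes rose in solvent as well, with a median of 4.47, as did all 25 mitosis genes (0.92) and all 25 S phase genes (1.11).

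The difference between both effects, cisplatin minus solvent, passed for 324 genes (1.88%), 197 in the higher direction (1.15%) and 127 in the lower (0.738%), or 132 and 181 with median ratio size factors. It moved to 165 in a fit of the A549/cDDP libraries alone and to 632 with array weights. Without 1 library it lay between 110 and 144 in 7 of 8 cases and was 329 without untransfected cisplatin replicate 1. Among the interferon response genes the smallest limma adjusted p of the difference was 0.283, for OAS2, and among the mitosis genes it was 0.0525, for the cytokinesis gene ANLN. Of the 26 Fanconi anaemia and homologous recombination genes, 6 had a difference in the higher direction, FANCD2 among them (0.47). Of the 29 damage-induced genes, 12 had a difference, all in the higher direction, such as RRM2B (-0.65 in cisplatin and -0.89 in solvent). Some lists had differences in the lower direction, among them 6 of 18 TGF-beta and BMP targets (a list in which 9 rose and 0 fell in solvent), 6 of 23 mesenchymal genes, MMP2 among them (-0.53), and 4 of 16 immediate early genes. Of the 29 damage-induced genes, 26 fell in solvent, with a median of -0.70. CDKN1A there had 266 and 269 FPKM with the control gapmer and 580 and 573 FPKM without transfection (-1.11), a difference of 0.45 ± 0.04 between both effects.

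**Figure D5:**
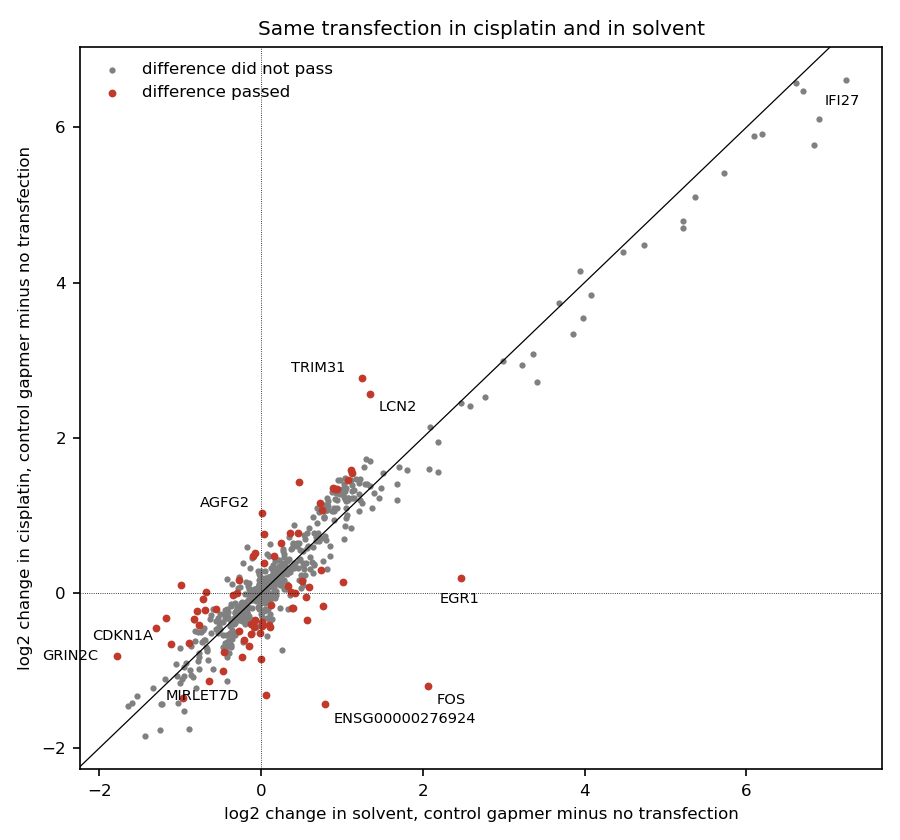
Log2 change of 597 genes of the lists and the naming rule, control gapmer minus no transfection, in cisplatin (vertical axis) and in solvent (horizontal axis). ENSG00000275530 is left out. Red marks the 71 genes whose difference between both effects passed, and the line marks where both changes are equal. Interferon response genes lie near the line at the upper right, and FOS (-1.19 in cisplatin, 2.06 in solvent) lies far below it.

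The immediate early gene FOS, a subunit of the AP-1 factor, went in opposite directions. In cisplatin it had 3.27 and 2.31 FPKM with the control gapmer and 8.66 and 5.57 FPKM without transfection (-1.19 ± 0.19, limma adjusted p = 0.000336). In solvent it had 3.75 and 4.85 FPKM with the control gapmer, against 0.593 and 0.692 FPKM without transfection (2.06). The difference was -3.26 (limma adjusted p = 0.000223). EGR1, another immediate early gene, did not pass in cisplatin (0.19, limma adjusted p = 0.463) and rose by 2.47 in solvent. Of 16 tested immediate early genes, 8 rose and 4 fell in cisplatin, or 2 fell without untransfected replicate 2. Of all tested genes 23.0% rose and 19.4% fell in cisplatin. TRIM31, an E3 ligase gene, and LCN2, an iron-sequestering secreted protein, rose in both settings and by more in cisplatin. TRIM31 rose by 2.77, against 1.24 in solvent, and LCN2 by 2.56, against 1.35 in solvent. For both, cisplatin and solvent differed more without transfection than with the control gapmer. LCN2 averaged 26.4 FPKM in cisplatin and 25.7 FPKM in solvent with the control gapmer, and 4.07 and 9.76 FPKM without transfection. TRIM31 averaged 10.2 and 8.47 FPKM with the control gapmer, and 1.085 and 3.28 FPKM without transfection.

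The SCAT7 gapmer in cisplatin was set against the same untransfected libraries, so its values are given beside those of the control gapmer without a test of likeness. In that contrast 47.5% of tested genes passed, 28.5% higher and 18.9% lower. All 25 interferon response genes rose with the SCAT7 gapmer, with a median of 5.03, beside 4.39 with the control gapmer. With the SCAT7 gapmer 0 of the 25 mitosis genes rose and 21 fell, with a median of -0.42, beside 25 that rose and a median of 1.18 with the control gapmer. Of the 25 S phase genes 8 rose and 7 fell with the SCAT7 gapmer (median 0.08), beside 25 that rose with the control gapmer (median 1.32). Of the 26 Fanconi anaemia and homologous recombination genes 8 rose and 5 fell with the SCAT7 gapmer (median 0.05), beside 26 that rose with the control gapmer (median 1.13). AURKB had 15.5 and 18.9 FPKM with the SCAT7 gapmer, 63.9 and 68.2 FPKM with the control gapmer, and 20.7 and 18.5 FPKM without transfection. CDKN1A had 661 and 666 FPKM with the SCAT7 gapmer, against the 447 and 449 FPKM of the control gapmer libraries. IFI27 had 271 and 149.8 FPKM with the SCAT7 gapmer, beside 182 and 201 FPKM with the control gapmer.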

How the data were processed

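Poly(A)-enriched RNA of 16 libraries was sequenced, in 8 groups of 2, and the 4 libraries compared here are the A549/cDDP control gapmer and untransfected libraries in cisplatin. The authors deposited FPKM values per gene. TopHat2, HTSeq 0.6.1 and hg38 are named in the submitters' processing notes. Whether counting used strand is not given in the sources used here, and the labelled library kit is not described as marking strand. The table holds 60448 gene identifiers, of which 56868 have a model in GENCODE 29. Symbols come from a separate list of gene names, and from that annotation where the list gave none.

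FPKM values were taken as log2(FPKM + 0.5), and the 17198 genes averaging 0.5 FPKM or more across all 16 libraries went into limma 3.58.1 in R 4.3.3, with 1 coefficient per group, trended variances, 8 residual degrees of freedom and Benjamini-Hochberg adjustment over all tested genes at 0.05. A filter on FPKM keeps a low gene that is high in a single group. Depth was recovered from the steps between low FPKM values (tolerance 0.02 reads) and ran from 31350000 to 43140000 reads over the 16 libraries. Fits were tested on simulated data first.

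Members, the 30 gene lists and the 8 pathway roles were chosen with earlier results of these data known, and the roles after values had been seen. The genes named are ELF3-AS1, ELF3, CDKN1A, MDM2, FOS and RNASEH1, up to 12 rises and 12 falls of largest size (at least 5 FPKM in the higher group, groups apart), up to 4 members per list and up to 5 per direction for the difference between cisplatin and solvent, which makes 144. Others were chosen after their values were seen, and some genes are not reported here. Same-numbered libraries did not deviate together (correlation 0.01 in cisplatin), so the numbers were not taken as pairs. Alternatives were another scaling, pseudocount, filter or set of libraries in the fit, array weights, a replicate block, and leaving out each library. Promoters and RefSeq starts (GRCh38.p14) come from 27305 windows.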

Additional observations from a re-analysis of the deposited data

Results flagged for a closer look

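For 25 of the named genes reported here, out of 144 named, the effect of the control gapmer, set against no transfection, differed between cisplatin and solvent by limma's test of that difference (adjusted p under 0.05), 14 in the higher direction and 11 in the lower. Over all tested genes 1.88% had such a difference, and up to 5 genes each way had been named for its size, so the count describes the naming rule too. The values are log2 change in cisplatin minus log2 change in solvent.

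FOS had a difference of -3.26, the largest in size, and in the 8 fits that each leave out a library it lay between -3.55 and -2.96. The gelatinase MMP2 differed by -0.53 and the linker histone H1-2 by -0.49, with larger falls in cisplatin. The matricellular protein gene CCN1 differed by -0.54. SPOCK1, a proteoglycan gene, differed by -0.93. It had 41.8 and 41.5 FPKM with the control gapmer in cisplatin, against 45.4 and 48.1 FPKM without transfection, and 69.4 and 72.6 FPKM with the control gapmer in solvent, against 43.0 and 40.0 FPKM without transfection.

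In the higher direction, TRIM31 differed by 1.52 and LCN2 by 1.21. AGFG2 differed by 1.01, with a change of 1.02 in cisplatin and 0.01 in solvent. The glutamate receptor gene GRIN2C differed by 0.97, with a smaller fall in cisplatin (-0.81) than in solvent (-1.78). ELF3 differed by 0.72, CDKN1A by 0.45 and the licensing factor CDC6 by 0.42. The difference passed in all 8 fits that leave out a library for FOS, MMP2, H1-2, CCN1, SPOCK1, TRIM31, LCN2, AGFG2, GRIN2C, ELF3, CDKN1A and CDC6, which makes 12 genes.

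The other genes passed in fewer of those 8 fits. MDM2 (0.55) and PFKFB3 (0.41) passed in 5 and CLDN14-AS1 (-0.93) in 4. MIRLET7D (-1.38) passed in 3, and it rests on 12 and 12 reads with the control gapmer in cisplatin, against 27 and 29 reads without transfection. TJP3 (0.97), MMP9 (-0.59) and ATP5PO (0.59) passed in 2. MCM10 (0.47), MT-ND6 (0.57), SLC7A11 (-0.31) and ENSG00000276924 (-2.23), an identifier with no gene model at hand, passed in 1. SERPINE2 (-0.39) and AC025423.4 (1.09), which overlaps MDM2 on the opposite strand, passed in 0, with limma adjusted p up to 0.159 for SERPINE2 and 0.136 for AC025423.4.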

How the results depend on the processing

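The number of genes that differed between control gapmer and no transfection in cisplatin lay between 5569 and 7674 under all alternatives, beside 7289 as reported, and the interferon, mitosis and S phase lists each had 25 genes that rose in every alternative in which lists were counted. Without 1 library it lay between 5569 and 6241 in cisplatin and between 5103 and 5268 in solvent. The number of genes whose effect differed between cisplatin and solvent was 324. It moved to 165 in a fit of the A549/cDDP libraries and to 632 with array weights, and lay between 110 and 329 when 1 library was left out, an alternative chosen after seeing the data. The array weights fit used all 16 libraries and the other fits fewer, and the cause of these moves was not tested. With the replicate block over all libraries the counts were 7163 in cisplatin, 6695 in solvent and 280 for the difference. The block, whose numbers do not pair the libraries, ended the calls of SOCS3 and ERAP2 and left 186 other refitted genes on their side of the threshold. After quantile normalization the change of RNASEH1 was -0.031. Without 1 library, genes near 0 turned sign: the change ran from -0.0040 to 0.066 for RNASEH1, from -0.032 to 0.239 for AC025423.4, from -0.024 to 0.168 for IFNLR1, from -0.038 to 0.028 for IFNAR2, from -0.023 to 0.011 for JAK1 and from -0.056 to 0.034 for IRF3. With 2 libraries a group, 1 library often decides a call near the threshold, and genes below about 1 FPKM rest on few reads.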

Other observations

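Some interferon-related genes outside the lists, chosen after their values were seen, rose as well, by less than the median of the interferon response list (4.39). The membrane protein gene IFITM1, which restricts virus entry, had 8.82 and 9.31 FPKM with the control gapmer in cisplatin and 0.0813 and 0.0442 FPKM without transfection (log2 change 4.09). The pseudocount understates the IFITM1 change: the means differed 144.5-fold, with about 3 and 2 reads in the untransfected libraries. IFITM3 and IFITM2, relatives of IFITM1, rose by 3.33 and 1.72. The IFITM1 model lies inside that of IFITM2 on the same strand, so their reads cannot be told apart there. The helicase DDX60 had 87.1 and 84.9 FPKM with the control gapmer and 6.82 and 6.28 FPKM without transfection (3.62). The ADP-ribosyltransferases PARP9 and PARP10 rose by 3.08 and 3.0004, the dNTP hydrolase SAMHD1 by 2.63, and the guanylate-binding proteins GBP4 and GBP1 by 2.83 and 1.47.

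Among genes outside that response, also chosen after their values were seen, the cell cycle factor MYBL2 rose by 1.69 and the histone methyltransferase EZH2 by 1.44. PKDCC, a secreted kinase gene, had 36.6 and 36.9 FPKM with the control gapmer and 10.6 and 8.75 FPKM without transfection (1.88).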
